A study of Mus musculus with 3 samples.

Results

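The 34 genes described here encode proteins of the sarcomere and its Z-disc other than the myosins: troponins, tropomyosins, actins and other thin-filament proteins, titin and M-band proteins, Z-disc proteins, and proteins of the intercalated disc, of turnover and of stretch signalling. They were chosen by symbol from the 27998 genes of the count tables, and all 34 were present. They were followed in single-nucleus RNA libraries of whole mouse hearts at embryonic day 9.5, by cardiomyocyte chamber and by genotype of Ncx1, the sodium-calcium exchanger gene listed as Slc8a1. The groups were Ncx1+/+ (wild type), Ncx1+/- (with 1 mutant allele, called heterozygous) and Ncx1-/- (called mutant) embryos, each with 1 library from 5 pooled hearts, so no difference between genotypes has a replicate check. The sources used here do not give how the Ncx1 allele was made or which exons it removes. Values are counts of unique molecular identifiers (UMIs) summed over the nuclei of a class and scaled to the total UMIs of that class as CPM, the field's usual depth-scaled unit. All intervals are exact 95% intervals that cover counting error only, not differences between hearts.

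A sarcomere is the contractile unit of striated muscle. Thin filaments of actin, covered by tropomyosin and the calcium-binding troponin complex, are anchored at the Z-disc by alpha-actinin, and titin spans from the Z-disc to the M-band at the centre of the thick filament. Calcium entering and leaving the cytosol with each beat acts on the thin filament through troponin C, and NCX1 moves calcium out of the embryonic cardiomyocyte. Embryos without Ncx1 are known to lack a regular heartbeat and to die at mid-gestation.

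The libraries held between 49022310 and 59898298 UMIs over 12525 to 13805 barcodes. Cardiomyocyte nuclei, found by clustering without the 34 genes, numbered 8695 in Ncx1+/+, 8035 in Ncx1+/- and 8598 in Ncx1-/-, with 29934623 to 35248099 UMIs per library. In these nuclei Slc8a1 stood at 16728, 8805 and 1282 CPM in the same order, which ranks the libraries as their labels do. The nuclear RNA Malat1 took 5.62%, 5.85% and 9.55% of cardiomyocyte UMIs, and the 9 erythroid markers summed to 268, 326 and 127 CPM. The part of either in the results below was not tested, except where a scaling without Malat1 and haemoglobin genes is given. Between 40 and 57 barcodes were shared by pairs of libraries, of which 34 to 48 were among the nuclei kept. Whether fewer transcripts per nucleus or fewer nuclei with a transcript lie behind a lower CPM cannot be told apart in these sums.

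The 34 genes together took 2.91% of cardiomyocyte UMIs in Ncx1+/+, 3.03% in Ncx1+/- and 3.12% in Ncx1-/-, and most of them differed by less than 1.5-fold between genotypes. A gene was called measured with at least 100 counts over the 3 libraries of a class, which 33 of the 34 reached in cardiomyocytes; Myom2, an M-band protein of more mature muscle, did not. A gene was said to stand apart in Ncx1-/- when its CPM there exceeded that of Ncx1+/+ and of Ncx1+/- by 1.5 times or more, or lay below both by as much, and the interval of each ratio excluded 1. Only Xirp2 stood apart as higher, 1 of 33 measured genes against 4.39% of all genes measured in cardiomyocytes. Only Lmod2 stood apart as lower, against 3.22% of all measured genes. Both shares are close to those of all genes. The median log2 ratio of Ncx1-/- to Ncx1+/+ over the 33 genes was 0.14, beside -0.03 over all 14139 genes measured, and 25 of the 33 lay above 0. Against Ncx1+/- the median was 0.07 and 20 of 33 lay above 0.

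**Figure D1:**
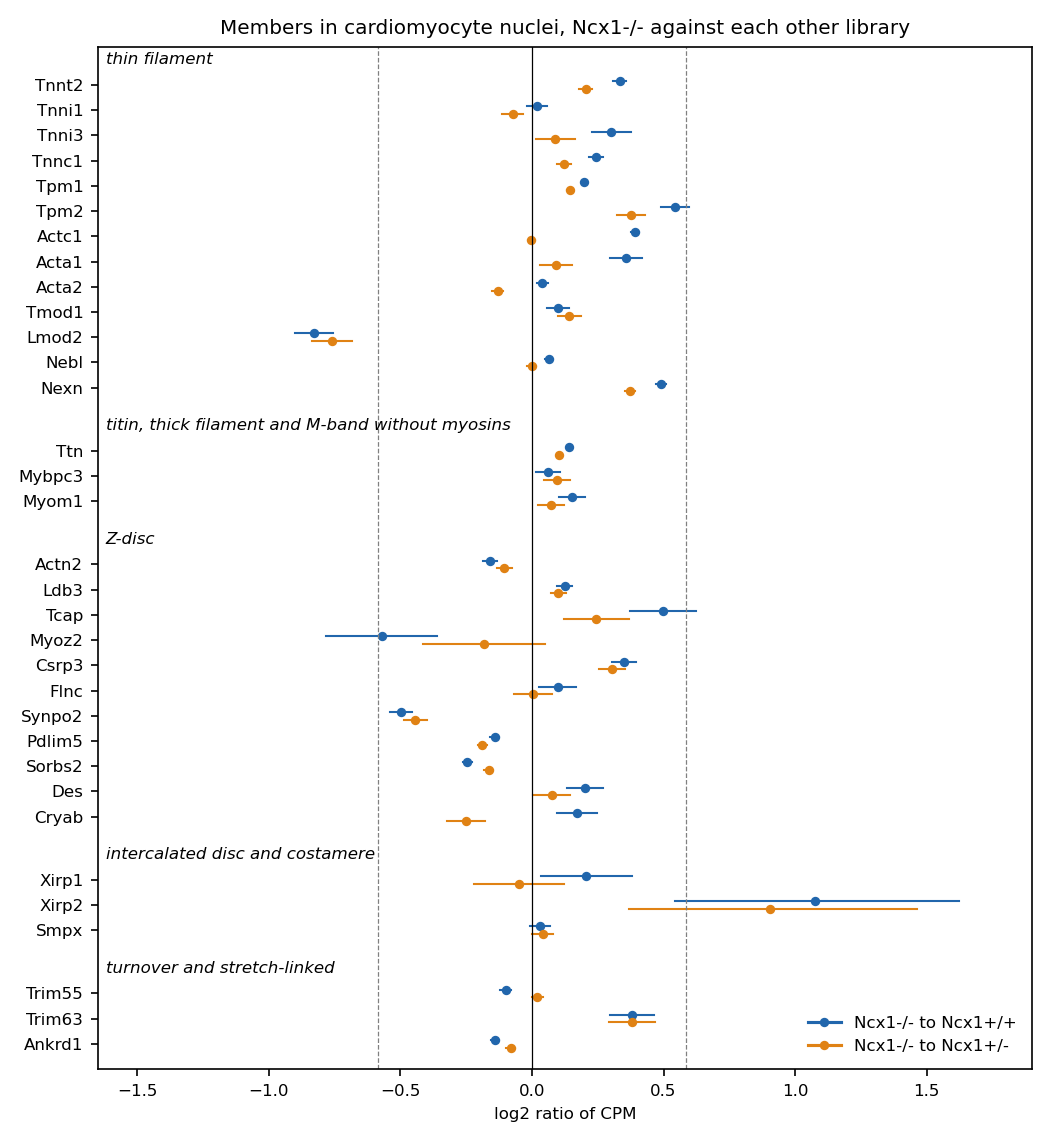
Log2 ratio of CPM in Ncx1-/- to Ncx1+/+ (blue) and to Ncx1+/- (orange) for the 33 measured genes in cardiomyocyte nuclei, grouped by role; bars are exact 95% counting intervals and dashed lines mark 1.5-fold. Most points lie between 0 and the right dashed line, Lmod2 lies left of the left dashed line at -0.83, and Xirp2 lies right of the right dashed line at 1.07 with the widest interval.

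Counted at any size of ratio, with Xirp2 and Lmod2 included, the genes split by direction. In 17 of the 33 (51.5%) the Ncx1-/- library lay above both others with both intervals excluding 1, against 20% of all measured genes, and in 6 (18.2%) it lay below both, against 26.7%. The 33 genes had a median of 29041 counts and all measured genes a median of 2095, so that small ratios are resolved more often for these genes. The 6 below were Actn2, Lmod2, Synpo2, Pdlim5, Sorbs2 and Ankrd1, and these 6 were also the ones below under each of the 3 other scalings run. The number above was 20 under each of those scalings.

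Among the 13 thin-filament genes, 12 had a ratio of Ncx1-/- to Ncx1+/+ above 1 in cardiomyocytes, and the exception was Lmod2. Nexn encodes nexilin, an actin-binding protein. Its level was 1083 CPM in Ncx1+/+, 1175 CPM in Ncx1+/- and 1522 CPM in Ncx1-/-. The mutant library was the highest by 1.40 times over wild type (1.39 to 1.42) and 1.29 times over heterozygous, short of the 1.5-fold limit. Tpm2, the beta-tropomyosin gene, gave 140, 158 and 205 CPM, a ratio of 1.46 (1.40 to 1.51) to Ncx1+/+. The more abundantly counted Tpm1, alpha-tropomyosin, gave 3523, 3660 and 4045 CPM, so Tpm2 counts were 3.83%, 4.13% and 4.81% of the tropomyosin pair. Nebl, which encodes the thin-filament protein nebulette, stood at 1750, 1830 and 1829 CPM.

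The troponin genes differed in how they ranked the libraries. Tnnt2, cardiac troponin T, stood at 711, 777 and 895 CPM, and Tnnc1, the calcium-binding subunit, at 630, 686 and 746 CPM. For troponin I, the inhibitory subunit, the embryonic Tnni1 stood at 312, 332 and 316 CPM and the cardiac Tnni3, which replaces it after birth, at 76.8, 88.9 and 94.6 CPM. Tnni3 was 19.8% (19.1% to 20.4%), 21.1% (20.4% to 21.8%) and 23.0% (22.3% to 23.7%) of the counts of the pair. Part of the Tnni3 locus overlaps Dnaaf3 on the same strand, so some of its reads could have been assigned to either.

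The actin genes ranked the libraries differently. Actc1, cardiac alpha-actin, gave 1873 CPM in Ncx1+/+, 2463 CPM in Ncx1+/- and 2458 CPM in Ncx1-/-. Heterozygous and mutant levels were nearly the same, and wild type was the lowest. Acta1, skeletal alpha-actin, gave 108, 130 and 139 CPM, and Acta2, smooth muscle alpha-actin, 1090, 1225 and 1120 CPM. Acta2 counts made up 35.5%, 32.1% and 30.1% of the 3 actins. The coding sequences of these actins are nearly identical, so the split between them is uncertain; how shared reads were treated is not stated in the labels or headers.

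Lmod2 encodes leiomodin 2, which elongates thin filaments at their pointed ends, where tropomodulin 1 (Tmod1) caps them. The gene lies at chr6:24597762-24605414 on the plus strand (mm10). Its cardiomyocyte level was 124 CPM in Ncx1+/+, 118 CPM in Ncx1+/- and 69.9 CPM in Ncx1-/-, from 4375, 3547 and 2393 counts. The mutant library was the lowest, by 1.77 times (1.69 to 1.87) against wild type and 1.69 times (1.61 to 1.79) against heterozygous. Tmod1 did not share this ratio: it stood at 258, 250 and 276 CPM. Lmod3, another leiomodin and no member of the 34, went the other way with 17.9, 24.9 and 34.6 CPM, 1.94 times wild type and 1.39 times heterozygous.

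The window before the Lmod2 start is shown because Lmod2 is the member that stood apart as lower in cardiomyocytes; it is the RefSeq window (GRCm38.p6) at chr6:24597521-24597761, plus strand, cut short where the annotated first exon begins.
Lmod2: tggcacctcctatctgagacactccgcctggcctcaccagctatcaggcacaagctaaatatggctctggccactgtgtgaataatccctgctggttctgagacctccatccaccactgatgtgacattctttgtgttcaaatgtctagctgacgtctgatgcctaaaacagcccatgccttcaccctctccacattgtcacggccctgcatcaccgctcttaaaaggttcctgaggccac
It has no capitals because it holds none of the 3 motifs searched further on, which says only that these letters are not in this window.

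Of the 4 genes of titin, the thick filament and the M-band, 3 were measured, with log2 ratios to wild type from 0.06 to 0.15. Ttn, the molecular spring and largest sarcomere protein, gave 7780, 7988 and 8570 CPM, a ratio of 1.10 to wild type. Mybpc3, cardiac myosin-binding protein C, gave 205, 200 and 213 CPM, and Myom1, the M-band crosslinker myomesin, 190, 201 and 211 CPM. For all 3 the mutant library was the highest, by at most 1.11 times over wild type.

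The 11 Z-disc genes went both ways, with 6 above and 5 below wild type and a median log2 ratio of 0.10. Those below included the actin-bundling Synpo2 (myopodin), at 329, 317 and 233 CPM, and the adaptor Sorbs2, at 1921, 1817 and 1621 CPM. Pdlim5, a PDZ-LIM protein that binds alpha-actinin, gave 1750, 1809 and 1585 CPM, and Actn2, alpha-actinin itself, 731, 704 and 654 CPM. In all of these the Ncx1-/- library was the lowest, but none reached 1.5-fold over cardiomyocytes as a whole. On the other side, Csrp3 (muscle LIM protein) gave 189, 195 and 241 CPM and Tcap (telethonin, which ties titin to the Z-disc) gave 25.8, 30.8 and 36.5 CPM. Ldb3, another PDZ-LIM protein, stood at 549, 558 and 599 CPM and Des, the intermediate filament protein desmin, at 95, 104 and 109 CPM. Flnc, filamin C, stood at 90.02, 96.0 and 96.3 CPM, and the small heat shock protein gene Cryab was highest in Ncx1+/-, at 77.4, 104 and 87.1 CPM. Myoz2, a calcineurin-binding Z-disc protein, was low throughout at 13.4, 10.3 and 9.06 CPM.

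Of the genes tied to intercalated discs and costameres, Xirp2 alone stood apart. Xirp2 encodes an actin-binding repeat protein of the intercalated disc and lies at chr2:67446002-67526614 on the plus strand. It was counted only 45, 43 and 92 times, which gives 1.28, 1.44 and 2.69 CPM. The mutant library was 2.11 times (1.46 to 3.08) above wild type and 1.87 times (1.29 to 2.75) above heterozygous. Its locus overlaps the predicted gene Gm13601 on the opposite strand. The related Xirp1 stood at 14.7, 17.6 and 17.0 CPM and Smpx, a small muscle protein of costameres, at 318, 316 and 325 CPM.

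The last 3 genes are the muscle ubiquitin ligases Trim55 and Trim63 and Ankrd1, which encodes a stretch-responsive protein that binds titin and also enters the nucleus. Trim63 gave 57.9, 57.9 and 75.3 CPM, higher in Ncx1-/- by 1.30 times over each other library, and Trim55 gave 1096, 1008 and 1022 CPM. Ankrd1 gave 1953, 1874 and 1772 CPM over all cardiomyocytes. That small difference is the sum of opposite ones in different chambers.

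Chamber classes came from clusters of cardiomyocyte nuclei made without the 34 genes and named only from other markers. Atrial-like nuclei numbered 901, 867 and 1074 in Ncx1+/+, Ncx1+/- and Ncx1-/-, ventricular-like 3013, 2795 and 3666, atrioventricular canal-like 1898, 1888 and 2023, and outflow tract-like 860, 830 and 662. Cardiomyocyte clusters 8, 10, 11, 12 and 13 received no chamber name and count only in cardiomyocytes as a whole. In the same library order, cluster 8 numbered 712, 602 and 301 nuclei, cluster 10 503, 371 and 364, and cluster 11 409, 355 and 227. Cluster 12 numbered 264, 199 and 155 and cluster 13 135, 128 and 126. The makeup of the cardiomyocyte class thus differed between libraries. Some defining markers separated the chamber classes in wild type. Nr2f2 was at 563 CPM in atrial-like against 17.6 CPM in ventricular-like nuclei. Hey2 was at 176 CPM in ventricular-like against 9.14 CPM in atrial-like nuclei. Tbx3 was at 233 CPM in atrioventricular canal-like nuclei and at most 39.2 CPM in the other classes. Isl1 was at 144 CPM in outflow tract-like nuclei and at most 21.9 CPM elsewhere. Other markers overlapped: the outflow marker Fgf10 was at 51.0 CPM in outflow tract-like but 66.3 CPM in ventricular-like nuclei. The canal marker Rspo3 was at 1125 CPM in atrioventricular canal-like and 1017 CPM in outflow tract-like nuclei. The ventricular marker Slit2 was at 449 CPM in ventricular-like and 294 CPM in atrial-like nuclei. The atrial marker Sln was at or near 0 in every class, at most 0.39 CPM. The classes may still differ in makeup between genotypes, since each was rebuilt from clusters. Some markers moved with genotype, given here in the same library order. In atrioventricular canal-like nuclei Tbx3 was at 233, 208 and 149 CPM but Cacna2d2 at 782, 774 and 732 CPM. In ventricular-like nuclei Hand1 was at 85.4, 102 and 56.9 CPM and Hey2 at 176, 188 and 240 CPM. In atrial-like nuclei Nr2f1 was at 163, 140 and 82.4 CPM and Hey1 at 39.3, 46.0 and 43.5 CPM. The part of these in the results for those classes was not tested.

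In outflow tract-like nuclei more of these genes stood apart than in any other chamber. Actn2, Lmod2, Synpo2 and Ankrd1 were lower in Ncx1-/-, 4 of the 31 measured, against 5.84% of all measured genes, and 0 were higher, against 4.39%. Ankrd1 gave 2948, 2890 and 1788 CPM, a fall of 1.65 times (1.59 to 1.71) against wild type and 1.62 times against heterozygous. Synpo2 gave 1077, 979 and 582 CPM, lower by 1.85 and 1.68 times. Actn2 gave 981, 919 and 595 CPM, lower by 1.65 and 1.55 times. Lmod2 gave 118, 127 and 48.5 CPM, lower by 2.44 (1.98 to 3.03) and 2.62 times, its widest gap in any of the 4 chamber classes. In each of the 4 genes wild type and heterozygous lay close together and the mutant library well under both. At a finer clustering resolution Actn2 and Lmod2 kept the call, while Synpo2 and Ankrd1 lost it with log2 ratios to wild type of -0.34 and -0.48. With totals that leave out Malat1, mitochondrial, ribosomal protein and haemoglobin genes, Actn2 lost the call with a log2 ratio to wild type of -0.64. Acta1 went the other way with 114, 153 and 195 CPM, 1.70 times wild type and 1.28 times heterozygous. At any size of ratio 5 of 31 lay above both other libraries, against 9.72% of all measured genes, and 7 lay below, against 15.7%. Nexn, Ttn, Tnnt2 and Tpm1 were above with Acta1, and Pdlim5, Sorbs2 and Trim55 below with the 4 named.

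Several markers moved with genotype in the outflow tract-like class, as some did in the other classes. Its cardiomyocyte markers summed to 23359, 22761 and 19232 CPM, and the 10 cushion mesenchyme markers to 711, 585 and 351 CPM, with 1 of the 10 at 0 in Ncx1-/- and none at 0 in the others. The outflow markers Sema3c and Fgf10 went in opposite directions, at 817, 701 and 413 CPM and at 51.0, 87.0 and 143 CPM. The 3 smooth muscle markers summed to 510, 640 and 406 CPM. Isl1, Wnt11, Tdgf1 and Hand2 were detected in all 3 libraries, and no marker of the outflow list was at 0. The part of these in the lower levels of Actn2, Lmod2, Synpo2 and Ankrd1 was not tested.

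**Figure D2:**
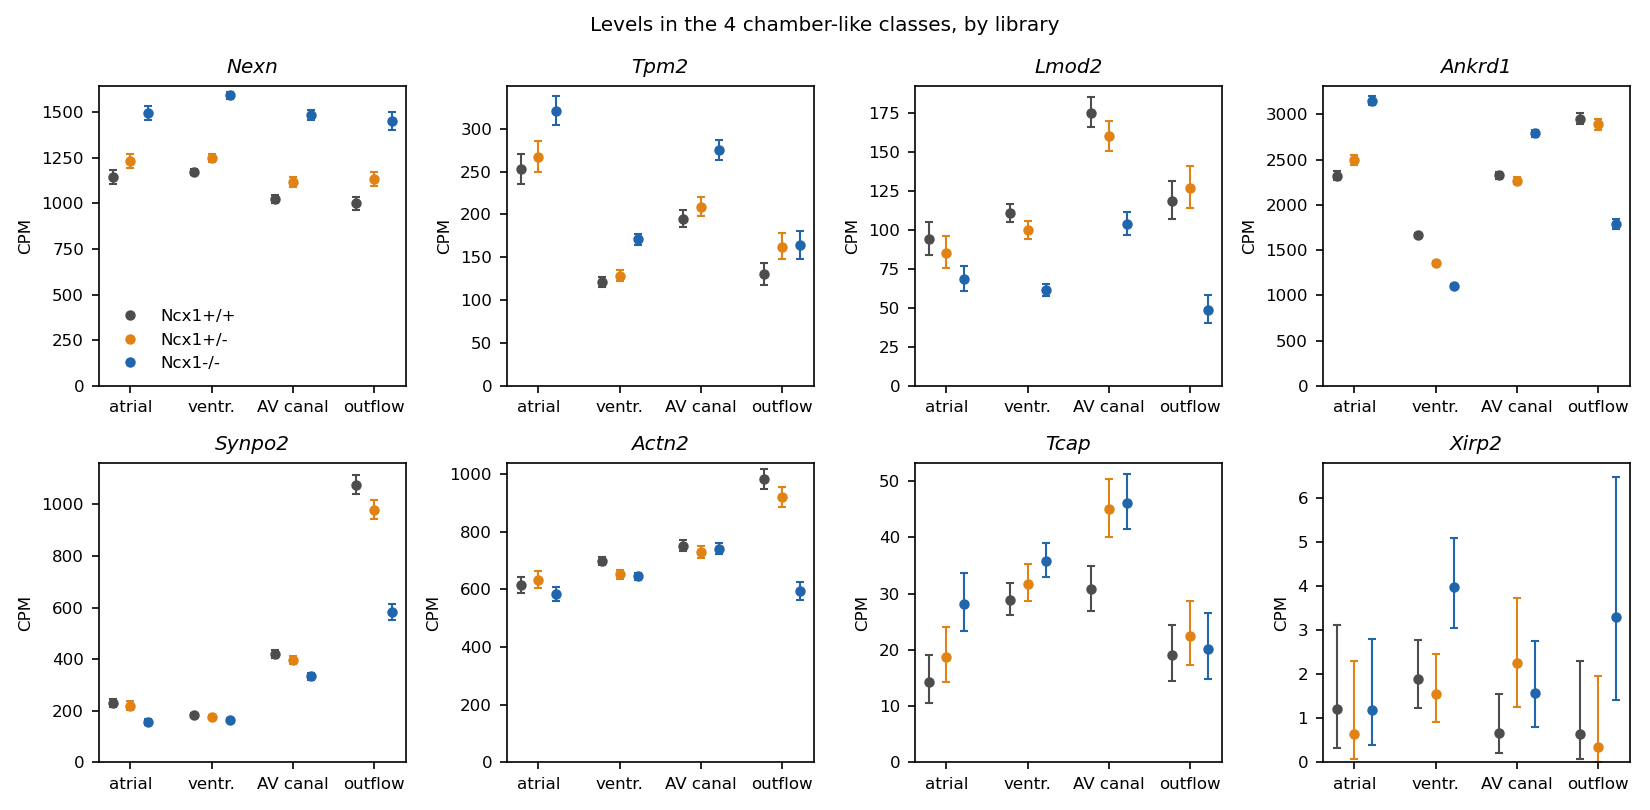
CPM of 8 genes (linear axes from 0) in atrial-like, ventricular-like, atrioventricular canal-like and outflow tract-like nuclei of each library, 1 library per genotype; bars are exact 95% counting intervals. Nexn is highest in Ncx1-/- in all 4 classes, Lmod2 is lowest in Ncx1-/- in all 4, and Ankrd1 is highest in Ncx1-/- in the atrial-like and atrioventricular canal-like classes and lowest in the other two.

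Atrial-like nuclei had 1 of 31 measured genes apart as higher, Tcap, against 2.77% of all measured genes, and 0 as lower, against 3.36%. Tcap was counted 47, 59 and 118 times, or 14.3, 18.7 and 28.2 CPM, 1.97 times (1.39 to 2.82) wild type and 1.51 times (1.09 to 2.09) heterozygous. The ratio to heterozygous lies at the limit, and the call was lost without a doublet filter and in 3 other alternatives of filtering or clustering. Acta1 gave 102, 143 and 169 CPM here, past 1.5-fold over wild type but not over heterozygous. The summed smooth muscle markers of this class were 388, 465 and 567 CPM, and their part in the Acta1 and Tcap values was not tested. At any size of ratio 9 of 31 lay above both other libraries, against 7.8% of all measured genes, and 5 below, against 15.3%. Those below were Lmod2, Synpo2, Smpx, Trim55 and Sorbs2, and Ankrd1 was among those above.

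Ventricular-like nuclei had Xirp2 apart as higher, against 4.51% of all measured genes, and Lmod2 apart as lower, against 2.16%. Xirp2 was counted 26, 18 and 63 times, and Lmod2 gave 111, 100 and 61.6 CPM, lower by 1.80 (1.66 to 1.95) and 1.63 times. Both calls were lost with at least 1000 detected genes per nucleus, where the log2 ratios to wild type were -0.63 for Lmod2 and 0.85 for Xirp2. They were also lost at a finer clustering resolution, with no centring between libraries, with the members kept in the clustering, and without 1 of the 4 ventricular-like clusters, led by Pde7b and Negr1. In that cluster Lmod2 gave 180, 155 and 57.4 CPM and Xirp2 3.06, 2.13 and 8.47 CPM. Without that cluster Lmod2 gave 97.0, 89.5 and 62.6 CPM, still the lowest in Ncx1-/- but 1.43 times under heterozygous. Xirp2 then fell short of 100 counts, with ratios of 1.71 (0.95 to 3.15) to wild type and 1.97 (1.04 to 3.95) to heterozygous. No other cluster of this class was left out in turn, and in the ventricular-like cluster led by Tll1 and Bmpr1b Lmod2 gave 125, 132 and 72.7 CPM. Myoz2 was 21.4, 16.0 and 13.7 CPM in this class, more than 1.5 times lower than wild type alone. At any size of ratio 11 of 33 lay above both others, against 16.6% of all measured genes, and 6 below, against 20.1%.

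Atrioventricular canal-like nuclei had 0 genes apart as higher, against 2.61% of all measured genes, and Lmod2 alone as lower, against 3.52%. Lmod2 was at its highest in this class, with 175, 160 and 104 CPM, lower in Ncx1-/- by 1.69 (1.55 to 1.85) and 1.54 times. The ratio to heterozygous lies at the limit, and the call was lost under each of the 3 other scalings, with Lmod2 still the lowest in Ncx1-/-. Here 15 of 32 measured genes lay above both other libraries at any size of ratio, among them Ttn, with 6682, 7092 and 8289 CPM, and Actc1, with 1829, 2425 and 2645 CPM. The background for that count is 10.9% of all measured genes, and the members' higher counts bear on it as they do in cardiomyocytes as a whole. Lower than both others were Lmod2, Synpo2, Pdlim5 and Sorbs2, against 17.6% of all measured genes.

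Ankrd1, at chr19:36111961-36120099 on the minus strand, was the member whose ratio changed direction with chamber by the widest margin. In atrial-like nuclei it gave 2322, 2498 and 3152 CPM and in atrioventricular canal-like nuclei 2324, 2268 and 2791 CPM, so the mutant library was the highest. In ventricular-like nuclei it gave 1662, 1361 and 1105 CPM and in outflow tract-like nuclei the values given above, so the mutant library was the lowest. The ratio of Ncx1-/- to Ncx1+/+ was 1.36 (1.32 to 1.40), 1.20 (1.18 to 1.23), 0.66 (0.65 to 0.68) and 0.61 (0.58 to 0.63) in that order. The 14 cardiomyocyte clusters also divided, with Ncx1-/- above both others in 6 and below both in 8. All clusters of the ventricular-like class went the same way, as did all of the atrioventricular canal-like class. The atrial-like class is cluster 0 alone and the outflow tract-like class cluster 5 alone, so these repeat the class values. Unnamed cluster 12, whose highest chamber score was ventricular (0.57), had Ankrd1 highest in Ncx1-/-, at 592, 663 and 788 CPM. Whether the chambers differ in their response could not be tested with 1 library per genotype.

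**Figure D3:**
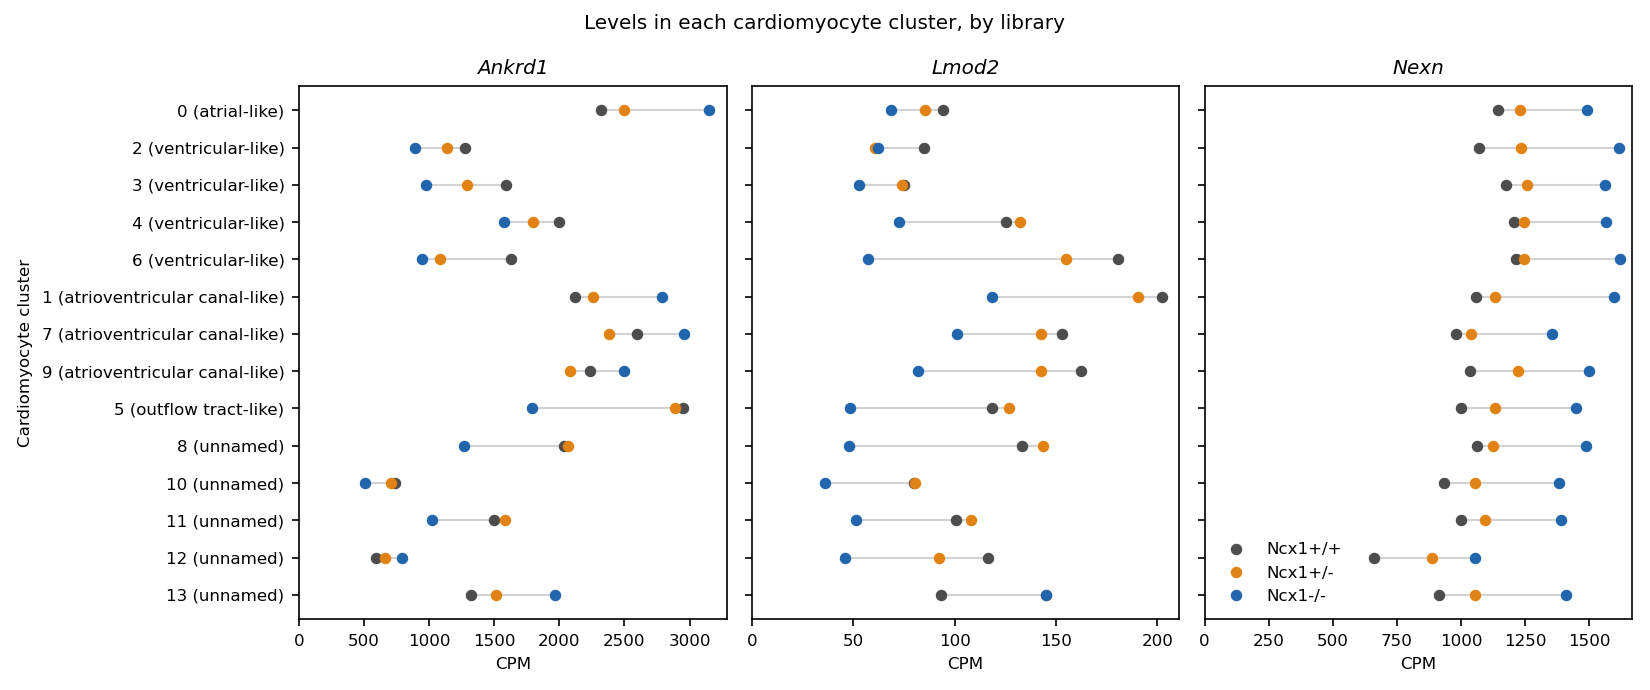
CPM of Ankrd1, Lmod2 and Nexn in each of the 14 cardiomyocyte clusters (rows, with chamber name in brackets), 1 point per library. Ankrd1 in Ncx1-/- lies right of both others in 6 clusters and left of both in 8, Lmod2 lies left of both in 12, and Nexn lies right of both in all 14.

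Across the 14 clusters, which share libraries and are not replicates, some other genes lay on 1 side in most clusters. These cluster counts, like those of Ankrd1, use no interval and no count minimum. No share of all genes was computed beside them, so how unusual they are cannot be said. Nexn was above both other libraries in Ncx1-/- in 14 of 14 clusters, with ratios to wild type from 1.30 to 1.59. Tpm2 and Tnnt2 were above both in 13 and Csrp3 in 12, with 0 clusters below both. Trim63 was above both in 12 and below both in 2. Sorbs2 was below both in 13 and above in 1, Lmod2 and Synpo2 were below in 12 and above in 1, and Pdlim5 was below in 11 and above in 2. The cluster with Lmod2 above both was cluster 13, where it gave 93.0, 145 and 145 CPM from 34, 44 and 47 counts.

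Some of the genes differed between chambers in every genotype. A gene was counted when it was at least 1.5 times higher in a chamber than in another in all 3 libraries, with each interval excluding 1. Between atrial-like and ventricular-like nuclei, Tpm2 was higher in the first, 1 of 33 against 2.82% of all genes. Its ratio was 2.08, 2.08 and 1.88 in Ncx1+/+, Ncx1+/- and Ncx1-/-. Myoz2 and Sorbs2 were higher in ventricular-like nuclei, against 4.14% of all genes. Myoz2 differed by 10.0, 8.39 and 4.40 times and Sorbs2 by 1.99, 1.93 and 1.9 times. The atrial-like Myoz2 levels rest on only 7, 6 and 13 counts, too few to be measured in that class alone. The size of the Myoz2 ratios, and their change with genotype, is therefore uncertain. The Sorbs2 levels were 2467, 2319 and 1996 CPM in ventricular-like and 1242, 1198 and 1053 CPM in atrial-like nuclei. Within each class the Ncx1-/- library was the lowest, and each ventricular-like level lay above all 3 atrial-like levels.

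Synpo2 was highest in the outflow tract-like class in all 3 libraries. It was higher there than in atrial-like nuclei by 4.67, 4.44 and 3.73 times, the only gene of 31 in that direction, against 4.8% of all genes. Over atrioventricular canal-like nuclei it was higher by 2.56, 2.47 and 1.75 times, again alone, against 3.25%. Together with Ankrd1 it was also higher than in ventricular-like nuclei, against 4.26%, by 5.88, 5.57 and 3.53 times. All 3 of these gaps were narrowest in Ncx1-/-.

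Smpx was higher in both chambers than in the canal or outflow. It stood at 487, 467 and 462 CPM in ventricular-like nuclei and 351, 344 and 303 CPM in atrial-like nuclei, against 106, 122 and 130 CPM in atrioventricular canal-like and 107, 151 and 121 CPM in outflow tract-like nuclei. Higher in atrial-like than in atrioventricular canal-like nuclei were Smpx and Acta2 (2.27% of all genes), and higher in ventricular-like were Smpx and Myoz2 (4.73%). Over outflow tract-like nuclei, Tnni3, Tpm2, Csrp3 and Smpx were higher in atrial-like nuclei (3.69%), and Tnni3, Myoz2, Csrp3, Smpx and Sorbs2 in ventricular-like nuclei (5.32%).

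The atrioventricular canal-like class was higher than another class in 8 genes, of which Myoz2 and Sorbs2 were higher still in ventricular-like, Synpo2 in outflow tract-like and Tpm2 in atrial-like nuclei. Tcap, Myoz2, Lmod2, Synpo2 and Sorbs2 were higher there than in atrial-like nuclei, 5 of 32 against 4.65% of all genes. Tpm2, Lmod2 and Synpo2 were higher than in ventricular-like nuclei, 3 of 33 against 4.56%. Tnni3, Tcap and Trim63 were higher than in outflow tract-like nuclei, 3 of 32 against 3.94%. Tnni3 made up 24.1%, 26.3% and 27.8% of troponin I counts there and 13.5%, 13.8% and 11.8% in outflow tract-like nuclei.

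**Figure D4:**
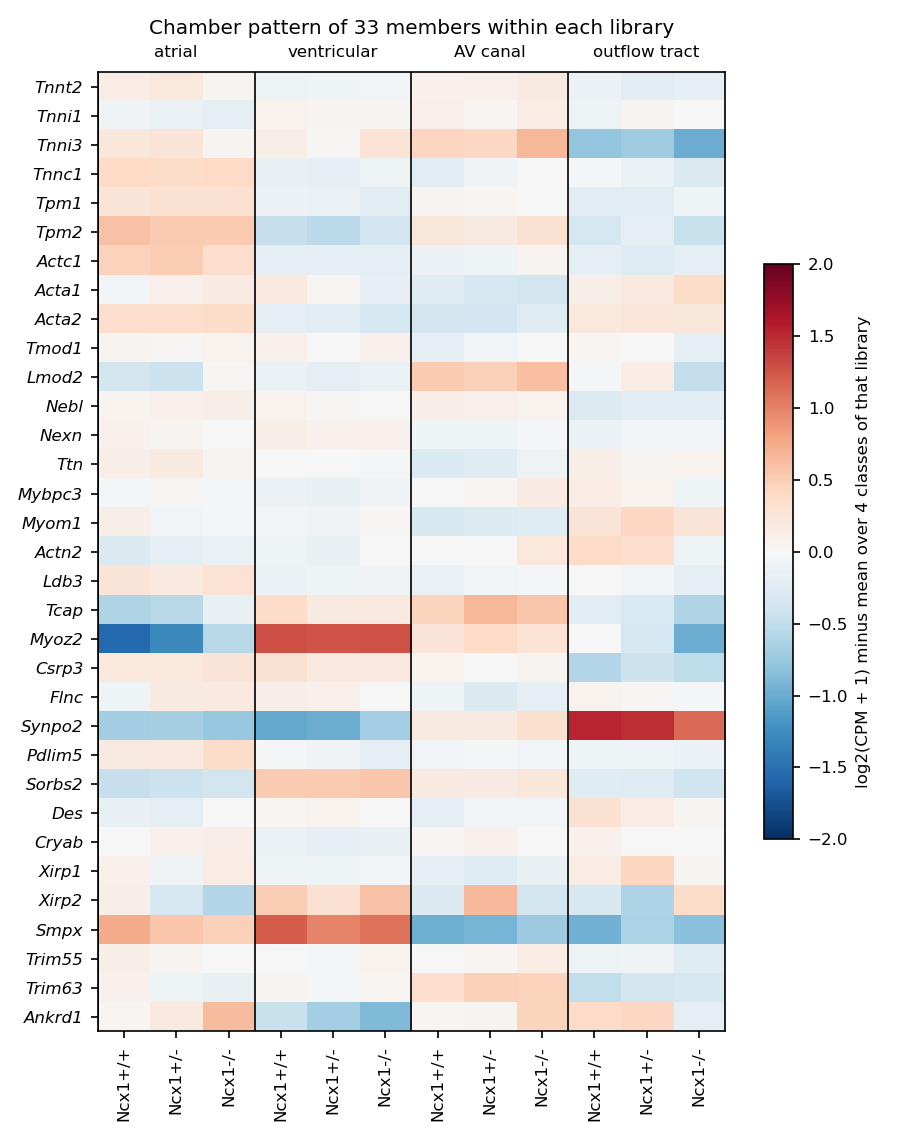
Heat map of the 33 measured genes (rows, by role) in 4 chamber-like classes and 3 libraries (columns); colour is log2(CPM + 1) minus the mean of that gene over the 4 classes of the same library. Myoz2 and Smpx are high in ventricular-like and Synpo2 in outflow tract-like columns of every library, and the Ankrd1 row differs between libraries within a class.

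The heterozygous library was compared with wild type by the same limit. In cardiomyocytes 0 of 33 were at least 1.5 times higher, against 1.18% of all measured genes, and 0 were lower, against 0.806%, counts near those shares. The widest ratios of Ncx1+/- to Ncx1+/+ in log2 were 0.42 for Cryab and -0.39 for Myoz2, and Actc1 had a ratio of 1.32. Among the chambers, Xirp1 in outflow tract-like nuclei passed as higher, with 15.8 CPM in Ncx1+/+ and 24.2 CPM in Ncx1+/-, against 1.52% of all measured genes there, and 0 members passed as lower, against 0.728%. In the other classes 0 members passed in either direction. The shares of all measured genes that passed as higher and lower there were 1.95% and 1.31% in atrial-like, 1.38% and 0.562% in ventricular-like, and 1.64% and 0.89% in atrioventricular canal-like nuclei.

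RefSeq start windows were matched for 28 of the 34 genes, in 39 windows of 250 bases before a start. Motifs of 3 muscle regulators were searched on both strands, and no matches of different motifs overlapped. The CArG box is bound by serum response factor, which acts with myocardin on actin and other muscle genes. It was found in 6 windows of 5 genes (15.4% of member windows) against 1.47% of all 32851 windows, with more than 1 window from Ldb3. By gene it was 5 of 28 against 1.62% of all genes with a window. All share the pattern that was searched, CC, then A or T bases, then GG, and they differ in the bases between. The sites, in genes of the thin filament, the Z-disc and the M-band, are shown with 10 bases on either side and the match in capitals.
Actc1: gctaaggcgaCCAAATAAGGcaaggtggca
Acta1: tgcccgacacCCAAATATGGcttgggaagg
Ldb3: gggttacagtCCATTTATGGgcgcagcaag
Myom1: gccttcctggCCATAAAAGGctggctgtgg
Nebl: gctcccatctCCTAAATTGGctggaaatgc
They lie, in GRCm38.p6, at chr2:114052903-114052932, chr8:123894829-123894858 and chr14:34588697-34588726, all on the minus strand, at chr17:71019448-71019477 on the plus strand and at chr2:17462999-17463028 on the minus strand. The ratios of Ncx1-/- to Ncx1+/+ in cardiomyocytes for these genes were 1.31, 1.28, 1.09, 1.11 and 1.05. Srf itself stood at 27.0, 26.1 and 22 CPM and Myocd at 1282, 1251 and 1161 CPM.

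The MEF2 site is bound by myocyte enhancer factors, which act early in heart muscle. It was found in 5 windows of 5 genes (12.8% of member windows) against 2.92% of all windows. By gene it was 5 of 28 against 3.42% of all genes with a window. Xirp2 and Synpo2, which stood apart in at least 1 class, are shown with the full window, and Ttn and Mybpc3 with 10 bases on either side, the match in capitals.
Xirp2: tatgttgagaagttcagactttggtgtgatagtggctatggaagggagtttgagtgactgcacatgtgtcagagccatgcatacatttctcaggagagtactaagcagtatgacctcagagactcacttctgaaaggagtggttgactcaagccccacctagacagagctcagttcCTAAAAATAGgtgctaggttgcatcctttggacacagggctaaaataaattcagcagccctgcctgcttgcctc
Synpo2: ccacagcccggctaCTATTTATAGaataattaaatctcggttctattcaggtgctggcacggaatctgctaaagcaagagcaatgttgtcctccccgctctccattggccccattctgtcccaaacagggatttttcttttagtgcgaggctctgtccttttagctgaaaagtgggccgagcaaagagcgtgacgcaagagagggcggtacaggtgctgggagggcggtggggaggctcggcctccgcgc
Ttn: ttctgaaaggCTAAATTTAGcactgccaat
Mybpc3: tggaatttgtCTATATTTAGcaggtggcta
They lie at chr2:67445752-67446001 (plus), chr3:123236150-123236399 (minus), chr2:76982694-76982723 (minus) and chr2:91118044-91118073 (plus). The 4 genes shown went both ways, with ratios to wild type of 2.11, 0.71, 1.10 and 1.04 in that order. Mef2c stood at 1183, 1176 and 1049 CPM and Mef2a at 533, 523 and 507 CPM.

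The M-CAT motif CATTCC, bound by TEAD factors, was found in windows of 10 genes (25.6% of member windows) against 12.6% of all windows. By gene it was 10 of 28 against 14.4% of all genes with a window. Ankrd1 was the only member with a pair of matches in its window, and both are shown on the gene's strand, where the match reads in reverse complement.
Ankrd1 distal: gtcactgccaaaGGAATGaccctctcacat
Ankrd1 proximal: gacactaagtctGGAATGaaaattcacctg
They lie at chr19:36120037-36120066 and chr19:36119950-36119979 on the minus strand, and 1 annotated transcript places both inside its first exon. Tead1 stood at 916, 921 and 1079 CPM in cardiomyocytes. All matches are descriptions of letters, and no binding was measured.

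A second list of 46 sarcomere and Z-disc genes outside the 34 was counted by the same limit. In cardiomyocytes 39 were measured, 0 were apart as higher, against 4.39% of all measured genes, and 2 were apart as lower, against 3.22%. These were Pdlim3, another PDZ-LIM protein, with 81.7, 77.3 and 49.1 CPM, and Mybpc1, slow myosin-binding protein C, with 5.90, 5.38 and 2.78 CPM. Their median log2 ratio to wild type was 0.03. In outflow tract-like nuclei Fhl1, Pdlim3 and Mybpc1 were lower, 3 of the 30 measured, against 5.84% of all measured genes. Pdlim3 was lower by 3.75 times against wild type, at 165, 149 and 43.9 CPM. Mybphl alone was higher there, at 24.7, 28.4 and 58.7 CPM, against 4.39% of all measured genes. In atrial-like nuclei Palld, an actin-bundling protein, was lower at 7231, 6551 and 4263 CPM. It was 1 of 29 measured, against 3.36% of all measured genes. In atrioventricular canal-like nuclei Lmod3 and Tnnt1 were higher, 2 of 34 measured, against 2.61% of all measured genes. In ventricular-like nuclei, with 36 measured, Capn3 was higher, against 4.51%, and Pdlim3 lower, against 2.16%.

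Of 17 genes for the assembly and quality control of sarcomeres, 0 stood apart in cardiomyocytes in either direction, against 4.39% and 3.22% of all measured genes, with a median log2 ratio of -0.07. Fbxo32, a ubiquitin ligase of muscle turnover, was apart as higher in outflow tract-like nuclei, at 72.2, 87.0 and 167 CPM. It was 1 of the 17 measured there, against 4.39% of all measured genes. Of 8 muscle splicing regulators, including the titin splicing factor Rbm20 at 1209, 1178 and 1198 CPM, 0 stood apart in cardiomyocytes. The shares of all measured genes there were 4.39% for higher and 3.22% for lower. The 8 cardiac myosins, given only for comparison, had 0 apart in cardiomyocytes, against the same shares of all genes, and a median log2 ratio of 0.37. In atrial-like nuclei Myh7 and Myh7b were apart as higher, against 2.77% of all measured genes, and Myl1 as lower, against 3.36%. Myh7 was higher in atrioventricular canal-like nuclei, against 2.61%, and Myh7b in outflow tract-like nuclei, against 4.39%. In ventricular-like nuclei 0 myosins stood apart, against 4.51% of all measured genes for higher and 2.16% for lower.

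The 34 genes were also counted outside cardiomyocytes, and whether free RNA, doublets or expression gave these counts was not tested. In endothelial and endocardial nuclei the median gene stood at 10.1%, 11.5% and 12.7% of its cardiomyocyte level in Ncx1+/+, Ncx1+/- and Ncx1-/-. Acta1 had the highest such share, 49.0%, 50.04% and 51.6%, and the part of these counts in its differences between libraries was not tested. Actc1 followed with 40.4%, 39.4% and 46.7%, whereas Ttn was at 11%, 10.03% and 14.8%, Lmod2 at 6.76%, 7.26% and 8.33% and Ankrd1 at 6.31%, 6.65% and 11.5%. Tmod1, also part of the red cell membrane skeleton, exceeded its cardiomyocyte level in erythroid nuclei, where it stood at 364, 360 and 324 CPM. Many other genes, but not all, were nearer their cardiomyocyte level in the erythroid nuclei of Ncx1-/-, which numbered 94 against 495 and 465. Tnni3, Mybpc3, Des, Flnc and Xirp1 were instead furthest from it in that library, Xirp1 at 68.7%, 45.4% and 28.9%. Among those nearer, Synpo2 was at 5.84%, 5.75% and 52.6% of its cardiomyocyte level in erythroid nuclei of Ncx1+/+, Ncx1+/- and Ncx1-/-. Lmod2 was at 12.2%, 12.5% and 28.1% and Ankrd1 at 14.1%, 13.9% and 37.6%. The cardiomyocyte markers in erythroid nuclei summed to 2918, 3272 and 8224 CPM.

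A group of low-UMI nuclei, 372, 405 and 243 per library, was kept out of the cardiomyocyte class. It held 15 of 18 cardiomyocyte markers but none among its 10 leading genes, which were Acta1, Actc1, heat shock and mitochondrial genes and Cited1. Its median was 1056 to 1105 UMIs per nucleus. In these Acta1 was 5.85, 6.22 and 5.37 times its cardiomyocyte level, Actc1 5.51, 4.98 and 4.07 times, and Ttn 3.62, 3.30 and 2.98 times. Synpo2, Pdlim5 and Sorbs2 were below their cardiomyocyte level in all 3 libraries, Synpo2 at 0.63, 0.68 and 0.54 times. Counting these low-UMI nuclei as cardiomyocytes left Xirp2 and Lmod2 as the genes that stood apart. Another cluster, of 13, 68 and 144 nuclei in the same library order, was held out for a high doublet score. It held all 18 cardiomyocyte markers, with a median of 10234 UMIs per nucleus. Its part in the results was not tested.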

How the data were processed

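Nuclei of whole hearts from the 3 genotypes were profiled by droplet sequencing; the labels' protocols name a 10x kit of version 3.1. The deposited values are raw UMI counts per gene and barcode; build mm10 and version 6.1.0 of Cell Ranger are named, per the submitters' processing notes, while version 9.0.0 wrote the tables, per the file headers. No source used here states if introns were included or if strand was used.

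Barcodes passed with 500 or more genes and no more than 5% of UMIs from mitochondrial genes, and the top 8% of Scrublet scores per library were removed (1098, 1038 and 1094 nuclei). Its automatic threshold called 1399, 1355 and 0 nuclei, so it was not used. Nuclei were clustered with scanpy 1.11.5 and the Leiden method (2000 variable genes, 30 components, 15 neighbours, resolution 1.0) without the 34 genes and Slc8a1. Clusters with low median UMIs or a median doublet score above 0.1 were held out. Cardiomyocyte clusters, with at least 12 of 18 markers, were clustered again after centring genes within each library. A chamber name needed at least 3 of its markers, a score of 0.42, a margin of 0.2 over the next chamber and a marker among the 10 leading genes. Median UMIs per barcode were 3863, 3460 and 3665.

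Raw counts were summed per class and library and scaled to CPM, with exact Poisson and binomial intervals at 95%. With 1 library per genotype no test was made and no p-value is given. Named with all library values are members that stood apart, that differed between chambers in all 3 libraries, or that had the most counts; the count at any size of ratio, the clusters described and the promoter motifs were chosen after the values were seen. The members and lists were chosen with earlier results of these data known. Coordinates are from GENCODE M21 (mm10), which matched 27645 of 27998 genes and all 34 members; 12 members overlap another gene of the tables. The calling procedure was tested on simulated data with counting error only, which cannot show how it behaves with differences between hearts or libraries. Alternatives used edgeR 4.0.16 for TMM factors. The sequence of 1 motif match is not reported here.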

Additional observations from a re-analysis of the deposited data

Results flagged for a closer look

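Ankrd1 was singled out because its Ncx1-/- library lay above both others in some chambers and below both in others, with all intervals excluding 1. Its log2 ratio of Ncx1-/- to Ncx1+/+ was 0.44 in atrial-like and 0.26 in atrioventricular canal-like nuclei, and -0.59 in ventricular-like and -0.72 in outflow tract-like nuclei. The difference between chambers was not tested, since each genotype has 1 library. The atrial-like, ventricular-like and outflow tract-like values kept their sign under every alternative scaling, filter and clustering run. Malat1 took 10.6%, 9.27%, 11.1% and 11% of UMIs in the atrial-like, ventricular-like, atrioventricular canal-like and outflow tract-like nuclei of Ncx1-/-, and its part in the pattern was not tested beyond the scaling without it.

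Acta2 met the same condition by a much narrower margin. Its log2 ratio was 0.22 in atrioventricular canal-like and -0.08 in ventricular-like nuclei, and the second was no longer below both other libraries when totals left out Malat1, mitochondrial, ribosomal protein and haemoglobin genes. That difference was not tested either.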

How the results depend on the processing

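Among recomputed counts and medians 111 stayed within 1.5 times of the count reported or close to the median reported, though not always equal to it (genes lower in outflow tract-like nuclei were 3 instead of 4 without Malat1 in the totals), and 34 moved, and among recomputed ratios of single genes 124 kept their call, 26 lost it and 0 changed direction. Xirp2 and Lmod2 stood apart in cardiomyocytes under every scaling, filter and added alternative run except a fold of 2, where both counts were 0. The median log2 ratio moved from 0.14 to 0.18 with TMM factors, 0.18 with median-of-ratios size factors, 0.20 without Malat1, mitochondrial, ribosomal protein and haemoglobin genes, and 0.13 with at least 1000 detected genes. Under the 3 scalings, genes lower in atrioventricular canal-like nuclei went from 1 to 0. With a fold of 2, counts went to 0 for higher in atrial-like, lower in ventricular-like, lower in atrioventricular canal-like and atrial-like over ventricular-like; lower in outflow tract-like went to 1 (Lmod2) and ventricular-like over atrial-like to 1 (Myoz2). Tcap in atrial-like nuclei went to 0 with at least 1000 detected genes, with no doublet filter, at resolution 2.0 and with the members kept in the clustering. In ventricular-like nuclei both counts went to 0 with at least 1000 detected genes, at resolution 2.0, with no centring, with the members kept and, as added after seeing the data, without cluster 6. In outflow tract-like nuclei resolution 2.0 gave 1 higher (Acta1) and 2 lower (Actn2 and Lmod2), and no count minimum gave 1 higher (Xirp2). Atrial-like over ventricular-like went to 2 at resolution 2.0 (with Ankrd1) and with no centring (with Actc1). The causes were not tested. No paired analysis was possible because each genotype has 1 library and the labels give no replicate numbers. Depth limits Xirp2, Myoz2 and Myom2, whose counts are few.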
